A study of Mus musculus with 2 samples.

Results

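The 9 genes described here are the Notch receptors Notch1 and Notch2, the ligands Dll1, Dll3 and Jag1, and the transcriptional targets Hes1, Hes5, Hey1 and Hey2, out of 18366 gene symbols listed in either of 2 single-cell libraries of mouse glioma. They were chosen by name, and all 9 were listed in both libraries. Tumours had been induced in C57BL/6 mice by transferring PDGFB, a ligand of the receptor Pdgfra, into the telencephalic ventricles of embryos in utero. They were taken about 40 days after birth, and GFP-positive cells were enriched by sorting. The single group comprised 2 libraries, here called pool 1 and pool 2. Each mixed the cells of 2 tumours before 4000 cells were loaded for droplet capture. No normal brain and no untreated group was analysed here, and the mouse behind each cell was not told apart. All tumours shared the PDGFB transfer, the strain and the age. Cells without the transgene were not told apart, and the comparisons below are between clusters and states of cells within these pools.

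Notch receptors sit at the cell surface and bind ligands of the Delta and Jagged families on neighbouring cells. After ligand binding the protease Adam10 and the gamma-secretase complex release the intracellular domain, which joins the DNA-binding factor Rbpj and a Mastermind co-activator in the nucleus and switches on repressors of the Hes and Hey families. Hes1 and Hes5 repress genes that drive differentiation, and in the developing brain this keeps neural progenitors and oligodendrocyte precursor cells from differentiating. Dll1 and Jag1 activate receptors on neighbouring cells, whereas Dll3 stays largely inside the cell and acts on receptors of the same cell.

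The libraries held 33894255 and 40909383 unique molecular identifiers (UMIs, each a captured RNA molecule). A cell was kept if 500 genes or more were found in it and its mitochondrial share did not exceed 15%, which left 3506 of 3843 in pool 1 and 3278 of 3650 in pool 2, with medians of 7440 and 11272 UMIs. A set of 4 cell barcodes occurred in both libraries. Clustering without the Notch genes gave 13 clusters, of which 9, numbered 0 to 8, had at least 20 cells in each pool. The oligodendrocyte precursor genes Pdgfra and Olig2 were found in all 9, and in all kept cells Pdgfra stood at 1279 and 1300 CPM (UMIs scaled to 1e6 in total) and Olig2 at 605 and 517 CPM. Clusters 2, 6 and 8 were led by cell cycle genes (Ccnb1 and Cenpa, histone genes, Hells and Mcm3). Cluster 3 was led by Meox1 and Gng11, cluster 4 by Rph3a and Neu4, cluster 5 by the erythroid gene Hba-a1 (0.12 and 56.7 CPM) and Vgf, and cluster 7 by Enpp6, Mbp and Bmp4, which mark committed oligodendrocyte precursors. Cluster 7 is called committed precursor-like, and the other 8 are called by number. Clusters 0 and 1 were shallow, with median depths of 3386 and 2962 UMIs and of 1803 and 1632 UMIs, against 9731 to 20925 in the other 7. Cluster 0 also held 98383 and 97669 CPM of the nuclear RNA Malat1, against 24872 to 51301 CPM in clusters 1 to 8, and its median mitochondrial share was 4.73% and 4.14%. Endothelial markers summed to at most 6.08 CPM in clusters 0 to 8, and pericyte markers to at most 4.45 CPM.

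In the GRCm38 annotation the receptor genes lie at chr2:26457903-26516663 (Notch1, minus strand) and chr3:98013527-98150361 (Notch2, plus strand). The ligand genes lie at chr17:15367354-15376872 (Dll1), chr7:28293553-28302238 (Dll3) and chr2:137081456-137116644 (Jag1), all on the minus strand. The target genes lie at chr16:30064384-30067796 (Hes1, plus), chr4:154960923-154962371 (Hes5, plus), chr3:8663359-8667256 (Hey1, minus) and chr10:30832359-30842801 (Hey2, minus). RefSeq promoter windows on GRCm38.p6 were matched for 7 of the 9 genes, not for Hes1 and Hey1. The 250 bases before each RefSeq start were searched on both strands for TGGGAA, the core of the sequence that Rbpj binds. Hes5 and Hey2 are shown because both are Notch targets whose levels moved together in some clusters and apart in others, and Dll1 because this ligand was high in a cluster where both targets were high. Each sequence is the part of the window upstream of the annotated gene, 5′ to 3′ on the gene's own strand, and capitals mark TGGGAA or its reverse complement.
Hes5, chr4:154960673-154960922, plus strand: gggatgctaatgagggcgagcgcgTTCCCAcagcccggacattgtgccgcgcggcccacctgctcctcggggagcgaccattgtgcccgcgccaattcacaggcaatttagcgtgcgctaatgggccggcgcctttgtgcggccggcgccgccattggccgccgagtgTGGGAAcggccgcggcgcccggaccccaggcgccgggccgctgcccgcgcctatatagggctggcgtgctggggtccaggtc
Hey2, chr10:30842802-30843033, minus strand: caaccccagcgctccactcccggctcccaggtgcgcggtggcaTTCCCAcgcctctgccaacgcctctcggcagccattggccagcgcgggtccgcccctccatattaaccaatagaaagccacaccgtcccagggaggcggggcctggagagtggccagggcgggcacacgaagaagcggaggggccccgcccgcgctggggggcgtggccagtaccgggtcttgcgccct
Dll1, chr17:15376933-15377182, minus strand: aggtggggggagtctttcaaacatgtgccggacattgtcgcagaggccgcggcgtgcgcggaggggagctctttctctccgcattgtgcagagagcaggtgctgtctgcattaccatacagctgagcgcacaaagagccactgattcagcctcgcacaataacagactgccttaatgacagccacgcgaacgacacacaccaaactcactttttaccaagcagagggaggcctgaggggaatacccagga

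The Hes5 window held 2 matches, whose first letters lie 226 and 82 bases before the RefSeq start. The Hey2 window held 1 match, 207 bases before the RefSeq start. The windows of the other 5 matched genes held none. Those of Notch1 and Dll3 lie wholly inside the annotated gene, so the bases before its annotated start were not searched. Of the Jag1 window, 126 bases lie upstream of the annotated gene. Of all 32851 windows of 250 bases, 21.6% held at least 1 match and 2.77% at least 2. The proneural E box CAGCTG, which does not overlap TGGGAA, occurred in the Dll1 window shown and in those of Dll3 and Jag1 and in 13% of all windows. A match is a run of letters and not a measured binding site.

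All 9 genes were detected in both pools. The receptor Notch1 stood at 154 CPM in pool 1 (5122 UMIs) and 139 CPM in pool 2 (5639 UMIs), or 146 ± 10.0 CPM (SD, n = 2 pools). Notch2, a second receptor, was near the limit of detection, with 49 and 57 UMIs in all kept cells (1.47 and 1.41 CPM). Among the ligands, Dll1 stood at 17.7 and 17.0 CPM, Dll3 at 52.7 and 52.2 CPM, and Jag1 at 10.4 and 11.9 CPM. The pools were within 15% of each other for these 5 genes, and further apart for Hes1, Hes5 and Hey2. Hes1 stood at 61.1 and 89.6 CPM and was higher in pool 2 in 8 of the 9 clusters. Hey2 stood at 14.6 and 8.63 CPM and was lower in pool 2 in 8 of the 9 clusters. Hes5 stood at 32.7 and 23.1 CPM and was lower in pool 2 in 6 of the 9, while Hey1 stood at 19.1 and 18.3 CPM. With 1 library a pool these differences between pools carry no test, and depth and the mitochondrial share (2.97% and 1.44%) also differed between the pools. Levels of different genes are not ranked against each other, since they were not scaled by length.

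To compare cells at equal depth, each cell was thinned to 2000 UMIs, which left out 391 and 404 shallower cells. A UMI of Notch1 was then found in 28.1% of cells in pool 1 (exact Clopper-Pearson 95% interval 26.5 to 29.7) and in 23.3% in pool 2 (21.7 to 24.9). Unthinned shares are higher, as in cluster 0, where 57.6% of the cells of pool 1 had a Notch1 UMI. Hes1 was found in 11.1% and 15% of thinned cells, Dll3 in 10.6% and 10.8%, Hes5 in 5.94% and 4.14%, and Dll1 in 4.62% and 4.07%. Hey1 was found in 4.11% and 3.55%, Hey2 in 3.34% and 1.64%, Jag1 in 3.18% and 1.98%, and Notch2 in 0.289% and 0.174%. All 9 genes were therefore seen in a minority of cells at this depth, which does not show that the other cells lack them. Among the microglia-like cells of cluster 9, a cell type outside the oligodendrocyte lineage, a Notch1 UMI was found in 0 of 7 and 1 of 12 thinned cells. Those few cells allow shares of up to 41.0% and 38.5%, so no background share could be set from them. Unthinned, the microglia-like cells held 105 and 41.9 CPM of Notch1 (7 and 6 UMIs) and 239 and 349 CPM of Pdgfra, at median depths of 1815 and 6847 UMIs, so a UMI in a cell does not alone show expression by that cell.

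Hes5 and Hes1 were unevenly spread over cells. The Fano factor, the variance of UMIs per cell over their mean, is 1 for pure counting noise. At 2000 UMIs per cell it was 1.86 and 1.37 for Hes5, 1.31 and 1.52 for Hes1, and 1.23 and 1.21 for Notch1. It was 0.974 and 1.04 for Hey1, and between 1.03 and 1.17 for Dll1, Dll3, Jag1 and Hey2. At full depth a single cell of cluster 2 in pool 1 held 34 Hes5 UMIs, and a single cell of cluster 4 in pool 2 held 31 Hes1 UMIs. The astrocyte-like cells of cluster 11 were not left out, and 1 of them in pool 1 held 26 Hes5 UMIs at full depth. The part of these cells in the factors for Hes5 was not tested. All these factors describe the cells of each pool and carry no test.

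**Figure D1:**
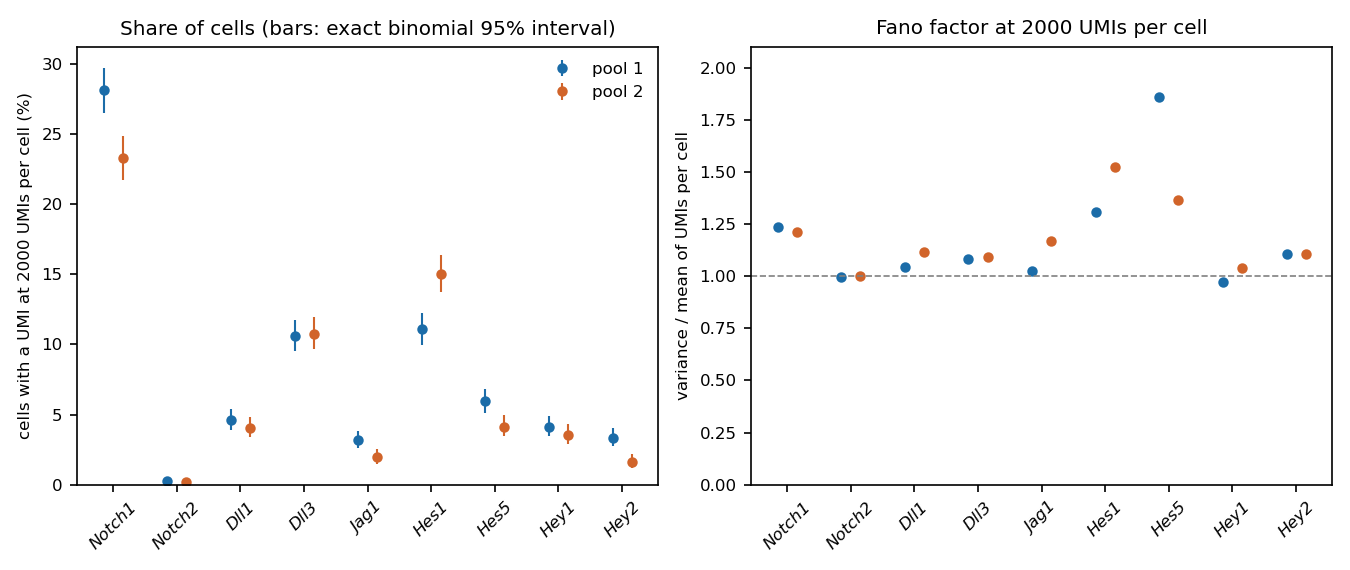
Left, share of cells (percent) with at least 1 UMI of each gene after thinning to 2000 UMIs per cell, by pool, with exact binomial 95% intervals. Right, variance over mean of UMIs per cell at the same depth, without the cells of clusters 9 and 12 but with those of cluster 11. A dashed line marks 1. Notch1 was found in 28.1% and 23.3% of cells, and the highest points on the right are Hes5 in pool 1 (1.86) and Hes1 in pool 2 (1.52).

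Clusters were then compared on the held-out part of the counts, summed per pool and cluster, each cluster against the mean of the other 8. All of those had equal weight, so the small cluster 7 counted as much as any other. No fit left cluster 7 out. The test was the quasi-likelihood test of edgeR with the pool as a block, and differences are log2 values ± SE with p-values adjusted by Benjamini-Hochberg over 11154 genes. Cells of 1 pool share the same tumours, so a p-value here reflects how well the 2 pools matched in a difference, and not the spread over tumours. Notch2 failed the filter on low counts, and the 8 other genes gave 72 pairs of gene and cluster. Of these, 17 were higher (23.6%) and 10 lower (13.9%) at an adjusted p below 0.05, against 11.7% and 7.96% of the pairs of all genes. Without the pool as a block 10 were higher and 5 lower, against 8.15% and 5.71% of the pairs of all genes in that fit. For all genes, the share called higher was 26.7% in cluster 0, 0.305% in cluster 1, 13.3% in cluster 2, 8.57% in cluster 3, 8.96% in cluster 4, 13.7% in cluster 5, 15.8% in cluster 6, 10.9% in cluster 7 and 7.38% in cluster 8. The share called lower was 28.4%, 0.117%, 6.54%, 4.94%, 5.32%, 8.91%, 5.14%, 11% and 1.23% in the same order.

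**Figure D2:**
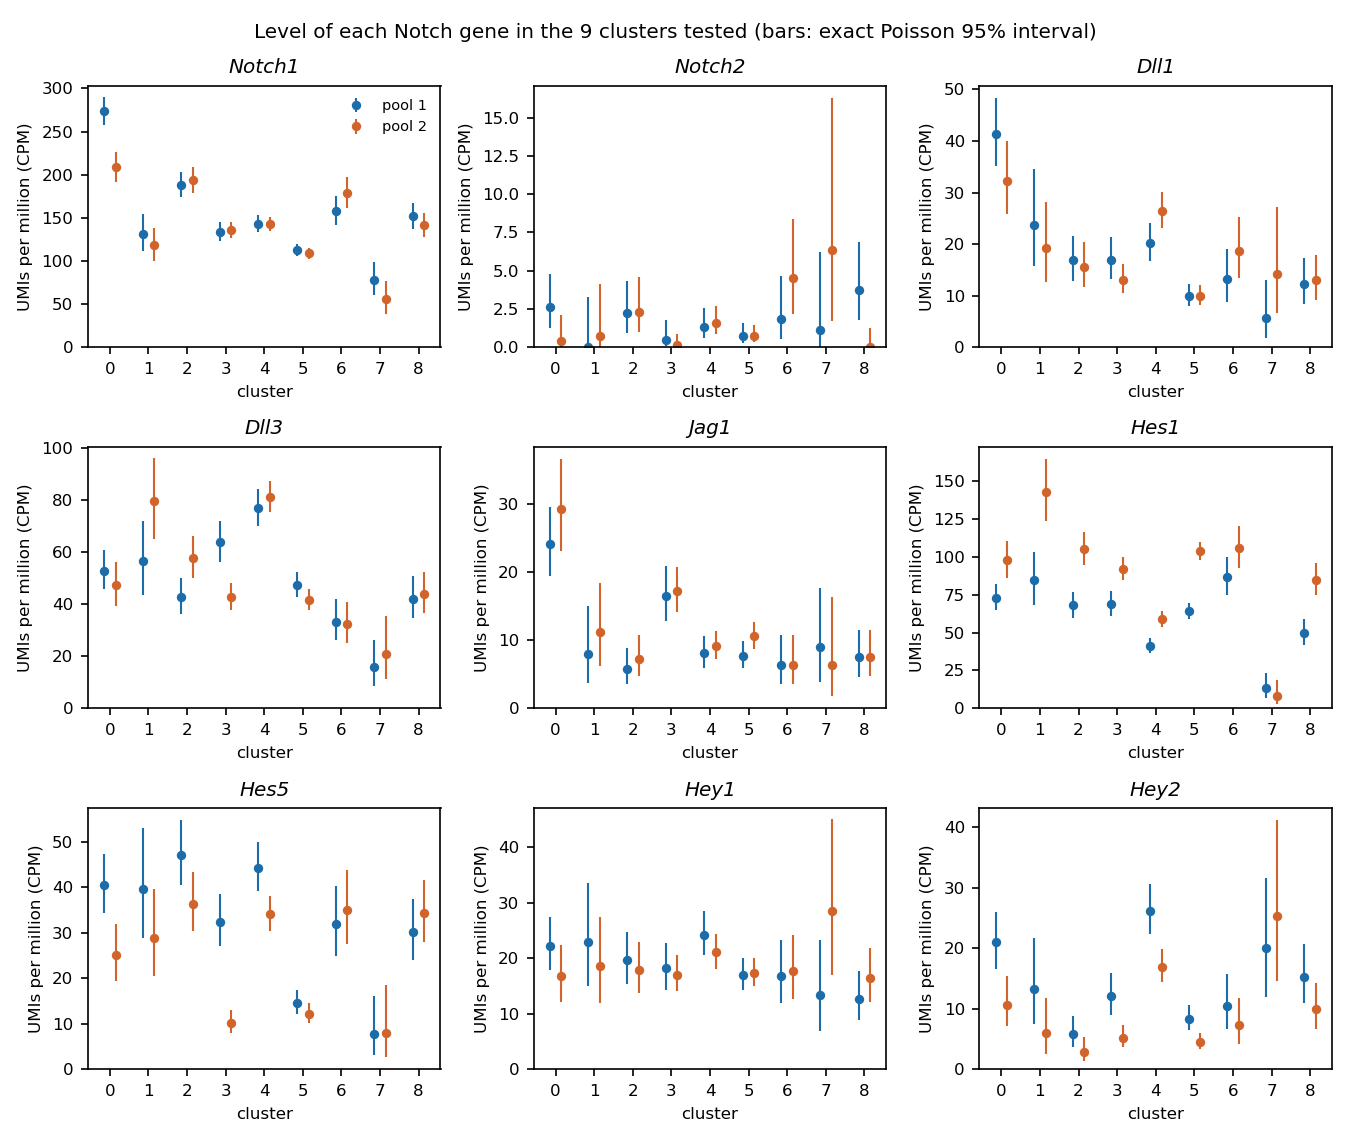
Level of each of the 9 genes (vertical axis, CPM, from 0) in clusters 0 to 8 (horizontal axis), for pool 1 and pool 2, with exact Poisson 95% intervals. Of these 9 clusters, Notch1 is lowest in cluster 7 in both pools, Hes1 is lowest there too, and Dll3 is highest in cluster 4.

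The receptor Notch1 was found in every cluster and, among clusters 0 to 8, was lowest in the committed precursor-like cells. In cluster 7 the level was 77.9 CPM (pool 1) and 55.5 CPM (pool 2), and in cluster 0, the highest, 273 and 209 CPM. Clusters 2 (188 and 193 CPM) and 6 (158 and 179 CPM), both led by cell cycle genes, followed. Clusters 8, 4, 3 and 1 lay between 118 and 152 CPM, with intervals that overlapped in both pools, and cluster 5 stood at 112 and 109 CPM. Against the other clusters Notch1 was 2.55-fold lower in cluster 7 (log2 −1.35 ± 0.19, adjusted p = 3.07e-06), with −1.07 in pool 1 and −1.79 in pool 2. Microglia-like cells held 105 and 41.9 CPM, so how much of the Notch1 RNA in cluster 7 was free RNA was not tested. Notch1 was 1.51-fold higher in cluster 2 (0.60 ± 0.10, adjusted p = 5.39e-05) and higher in cluster 6 (0.44 ± 0.11, adjusted p = 0.00396). The call in cluster 6 was lost with 2 libraries per pool, 1 of the cluster and 1 of all the others summed. Notch1 was higher in the shallow, Malat1-rich cluster 0 (0.70 ± 0.10, adjusted p = 8.82e-07). The small decrease in cluster 5 (−0.30 ± 0.10, adjusted p = 0.0279) was lost under 5 of 12 alternative settings. Notch2 held between 0 and 14 UMIs per pool and cluster, too few to order its clusters.

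The ligands were spread over clusters in 3 different ways. Dll1 stood at 41.4 and 32.3 CPM in cluster 0, at 20.1 and 26.4 CPM in cluster 4, and at 9.92 and 9.98 CPM in cluster 5. Dll1 was higher in cluster 0 (1.06 ± 0.19, adjusted p = 3.48e-05) and cluster 4 (0.65 ± 0.17, adjusted p = 0.0106), and lower in cluster 5 (−0.70 ± 0.20, adjusted p = 0.0113). With DESeq2 the call in cluster 4 was lost. The call in cluster 5 was lost under 3 of 12 settings: without cluster 0, without the shallow clusters and without the deepest cells. Dll3 was highest in cluster 4, at 76.8 and 81.0 CPM, and lowest in cluster 7, at 15.6 and 20.6 CPM. Its differences were 1.94-fold higher in cluster 4 (0.96 ± 0.12, adjusted p = 5.77e-06) and 3.14-fold lower in cluster 7 (−1.65 ± 0.37, adjusted p = 0.00131), and both passed under all 12 alternative settings. Jag1 stood at 24.1 and 29.2 CPM in cluster 0 and at 16.4 and 17.2 CPM in cluster 3, and between 5.79 and 11.1 CPM in the other 7. Jag1 was 2.79-fold higher in cluster 0 (1.48 ± 0.23, adjusted p = 3.46e-06) and 1.95-fold higher in cluster 3 (0.97 ± 0.22, adjusted p = 0.0036), the latter at 1.19 without pool 2 and 0.64 without pool 1. So the Delta-type ligands Dll1 and Dll3 were both higher in cluster 4, where Jag1 stood at 8.02 and 9.04 CPM and was not called.

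Of the targets, Hes1 was, among clusters 0 to 8, lowest in cluster 7, at 13.4 CPM in pool 1 (12 UMIs) and 7.93 CPM in pool 2 (5 UMIs). It was next lowest in cluster 4, at 41.1 and 58.8 CPM, and in pool 2 highest in cluster 1, at 143 CPM. Hes1 was 7.19-fold lower in cluster 7 (−2.85 ± 0.37, adjusted p = 7.76e-07), with −2.40 in pool 1 and −3.17 in pool 2. It was higher in cluster 6 (0.78 ± 0.15, adjusted p = 0.000239), cluster 1 (0.88 ± 0.17, adjusted p = 0.0281), cluster 2 (0.55 ± 0.14), cluster 5 (0.46 ± 0.12) and cluster 3 (0.46 ± 0.13). The last 3 varied between the pools, at 0.33 without pool 2 and 0.73 without pool 1 in cluster 2, 0.27 and 0.62 in cluster 5, and 0.67 and 0.29 in cluster 3. Each was read against a mean that includes the low cluster 7, whose part in these calls was not tested. Hes1 stood at 64.0 and 104 CPM in cluster 5, and at 73.0 and 98.0 CPM in cluster 0, where it was not called. Without the pool as a block the calls in clusters 1, 2, 3, 4 and 5 were lost. The call in cluster 4 (−0.48 ± 0.14, adjusted p = 0.0211) was lost under 4 of 12 settings, and the call in cluster 3 under 3 of 12. Hes1 was the 1 member of 8 called in cluster 1, where 0.305% of all genes were called higher and the median depth was 1803 and 1632 UMIs.

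Hes5 followed another order. It stood at 47.1 and 36.4 CPM in cluster 2, at 44.2 and 34.0 CPM in cluster 4, at 14.5 and 12.2 CPM in cluster 5 and at 7.79 and 7.93 CPM in cluster 7 (7 and 5 UMIs). Cluster 3 was low in pool 2 (10.1 CPM) and not in pool 1 (32.4 CPM). Hes5 was 1.84-fold higher in cluster 2 (0.88 ± 0.22, adjusted p = 0.00476) and 1.6-fold higher in cluster 4 (0.67 ± 0.19, adjusted p = 0.0175), the latter lost with DESeq2. It was 1.87-fold lower in cluster 5 (−0.90 ± 0.24, adjusted p = 0.00686) and 4.50-fold lower in cluster 7 (−2.17 ± 0.62, adjusted p = 0.0107). In clusters 4 and 5 Hes1 and Hes5 were therefore called on opposite sides, and in clusters 2 and 7 on the same side. The 4 calls in clusters 4 and 5, and that of Hes1 in cluster 2, were lost without the pool as a block. The call of Hes5 in cluster 5 was also lost without the cycling clusters. The side of Hes1 in cluster 5 was read against a mean that includes the low cluster 7, and no fit left cluster 7 out. The difference between the 2 genes was not tested.

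Of the Hey genes, Hey2 was called in 4 clusters and Hey1 in none, and all 4 calls of Hey2 were lost without the pool as a block. Hey2 stood at 26.2 and 17.0 CPM in cluster 4, at 20.04 and 25.4 CPM in cluster 7 (18 and 16 UMIs), at 8.37 and 4.53 CPM in cluster 5 and at 5.79 and 2.89 CPM in cluster 2. It was 1.90-fold higher in cluster 4 (0.92 ± 0.21, adjusted p = 0.00277), 1.91-fold lower in cluster 5 (−0.93 ± 0.25, adjusted p = 0.00802) and 2.78-fold lower in cluster 2 (−1.48 ± 0.36, adjusted p = 0.00381). In the committed precursor-like cells, where Notch1, Dll3, Hes1 and Hes5 were lower, Hey2 was higher (1.38 ± 0.41, adjusted p = 0.0137). That value rests on few UMIs and varied between pools, at 0.66 without pool 2 and 2.12 without pool 1, and 1 cell held 5 of the 16 UMIs of pool 2. Cluster 4 alone, with 15.4% and 19.6% of the cells, held 32.9% and 43.0% of the Hey2 UMIs. Hes5 and Hey2 were thus called on the same side in clusters 4 and 5 and on opposite sides in clusters 2 and 7. The clusters lay between 12.7 and 24.2 CPM of Hey1 (pool 1) and between 16.4 and 28.6 CPM (pool 2), and all intervals overlapped in pool 2. With edgeR Hey1 passed in none of the 9 clusters (log2 −0.58 to 0.35).

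Read by cluster, 4 of 8 members were lower in cluster 7 against 11% of all genes, and 4 of 8 were higher in cluster 4 against 8.96%. In cluster 5, 4 of 8 were lower against 8.91%. In cluster 0, 3 of 8 were higher against 26.7%, which is near the share of all genes. With library sizes alone in place of the TMM scaling, the median of all genes moved by 0.26 in cluster 0 and by −0.11 in cluster 6, and with upper quartile scaling by 0.13 and −0.12. All 27 member calls passed under both. The part of the low depth and high Malat1 of cluster 0 in its 3 calls was not tested. The median log2 difference of the 8 members was −1.09 in cluster 7, 0.50 in cluster 4, 0.41 in cluster 0 and −0.16 in cluster 5, against −0.05, 0.03, 0.02 and 0.02 over all genes.

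**Figure D3:**
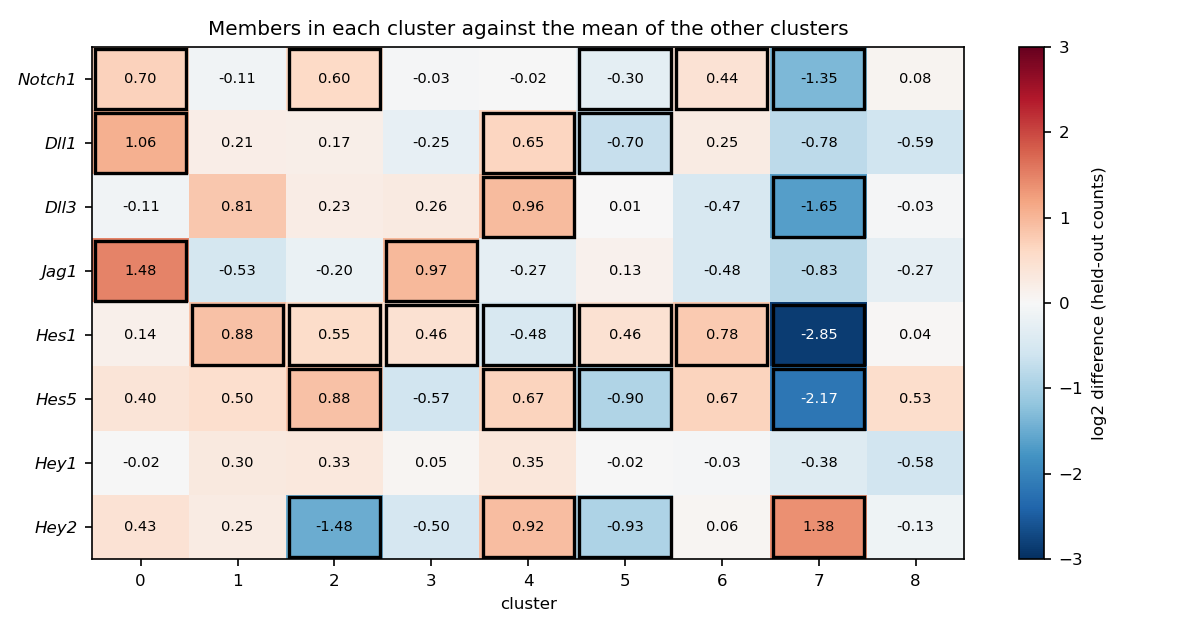
Log2 difference of each gene in each cluster against the mean of the other 8 clusters, from held-out counts, with colour from −3 (blue) to 3 (red). Outlined cells passed at an adjusted p below 0.05 (27 of 72), and cluster 7 shows the lowest values for Hes1 (−2.85) and Hes5 (−2.17) beside a positive value for Hey2 (1.38).

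Some clusters were too small to test. The astrocyte-like cells of cluster 11, 7 in each pool with all 10 astrocyte markers detected, held 691 and 235 CPM of Hes5. Those levels rest on 32 and 12 UMIs in 4 and 3 cells, and 26 of the 32 came from 1 cell. Hey1 stood at 86.4 and 58.7 CPM there, on 4 and 3 UMIs. Hes5 had no UMI in the microglia-like cells of cluster 9 or in the mature oligodendrocyte-like cells of cluster 12. Counts of 0 there allow up to 44.9 and 20.9 CPM in cluster 9 and up to 32.5 and 10.8 CPM in cluster 12 (a floor of 3 counts, for counting error only). Notch1 stood at 43.3 and 21.7 CPM in the mature oligodendrocyte-like cells, on 4 and 6 UMIs and without a test.

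Other genes of the pathway numbered 46 in both pools, of which 40 could be tested. They gave 48 higher and 19 lower calls among 360 pairs, 13.3% and 5.28%, against 11.7% and 7.96% for all genes. Of the 10 genes of the nuclear complex, 9 were higher in cluster 0, led by the co-activator Maml3 (1.64 ± 0.18), as were the ubiquitin ligases Neurl1a (1.31 ± 0.16) and Mib1 (0.81 ± 0.11), which act on ligand uptake. The gamma-secretase subunit Psenen was lower there (−1.39 ± 0.14). In all, 20 of the 40 were higher in cluster 0, against 26.7% of all genes, and the part of its low depth, 98383 and 97669 CPM of Malat1 and mitochondrial share was not tested. In the cycling cluster 2 the Notch target and feedback inhibitor Nrarp was higher (1.31 ± 0.17, adjusted p = 1.26e-06), beside the higher Notch1, Hes1 and Hes5. The target Hey2 was lower there (−1.48 ± 0.36), and the calls of Hes1 and Hey2 were lost without the pool as a block. Hes6 (−0.56 ± 0.19), Maml3 (−0.95 ± 0.27) and Tle4 (−0.38 ± 0.13) were lower in cluster 2 too, calls lost under 5, 3 and 7 settings. Nrarp was also higher in cluster 6 (1.05 ± 0.21, adjusted p = 0.000333), a call lost without the pool as a block.

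In the committed precursor-like cells of cluster 7 the ligand-like protein Dner was 3.02-fold lower (−1.59 ± 0.19, adjusted p = 1.46e-07). The ligase Neurl1a was lower too (−2.93 ± 0.54), with −2.04 without pool 2 and −5.00 without pool 1. The DNA-binding partner Rbpj was not lower there but higher (0.70 ± 0.23, adjusted p = 0.0304), with 0.13 in pool 1 and 1.17 in pool 2, and this call was lost without the pool as a block and without the deepest cells. The co-repressor Tle4 was higher in cluster 7 (0.98 ± 0.17).

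The fringe glycosyltransferase Lfng, which alters the ligand preference of the receptors, was higher in cluster 3 (1.43 ± 0.31), where Jag1 was also higher, with 0.21 without pool 2 and 2.01 without pool 1. Dner was higher in cluster 3 (0.48 ± 0.09) and cluster 4 (0.52 ± 0.09). In cluster 5 the gamma-secretase gene Psen2 (1.08 ± 0.15) and the non-canonical ligand Dlk1 (2.02 ± 0.36) were higher, and the fucosyltransferase Pofut1, which modifies the receptors, was lower (−0.66 ± 0.20). Psen2 was 6.12-fold lower in cluster 6 (−2.61 ± 0.40). In cluster 8, 1 pathway gene passed, the co-repressor Tle4 (−0.58 ± 0.14). In cluster 1 none passed with edgeR, with 6 of 40 at an unadjusted p below 0.05.

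**Figure D4:**
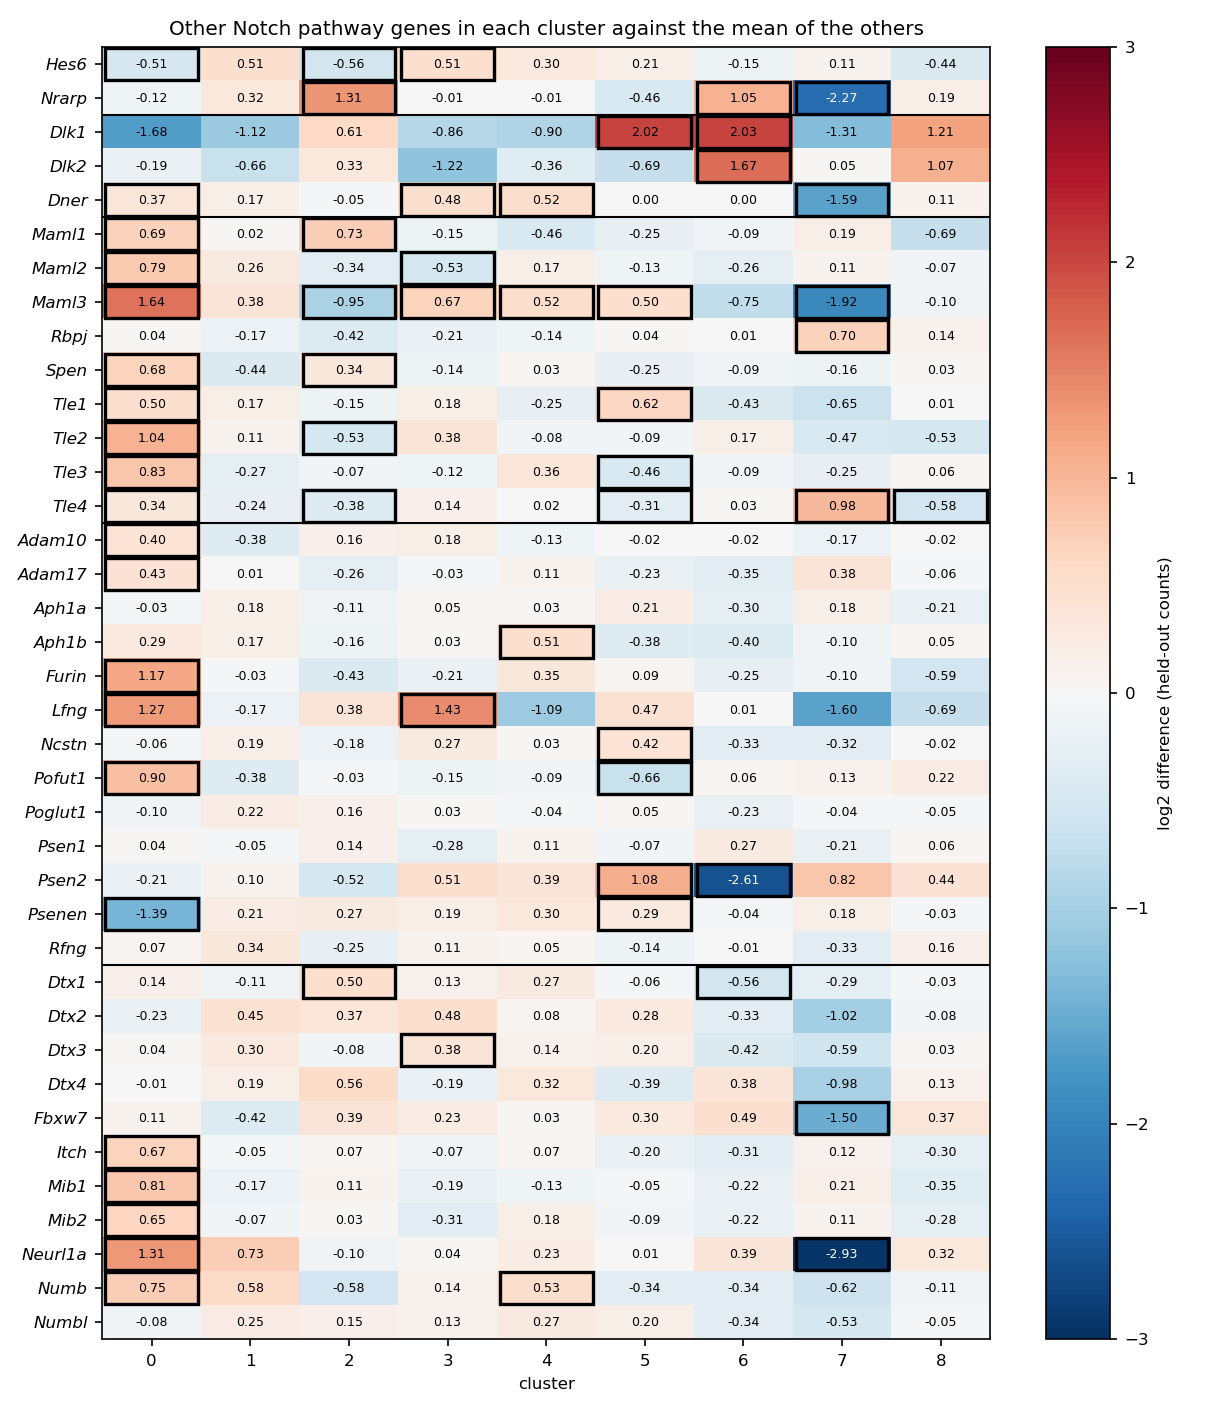
Log2 difference of 38 other pathway genes (rows, grouped from top to bottom as further targets and partners, ligands, nuclear complex, processing and sugar transfer, trafficking and degradation) in each cluster against the mean of the other 8, from held-out counts. Outlined cells passed at an adjusted p below 0.05, and 21 of these 61 are in cluster 0, where 19 were higher.

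Cycling cells, with UMIs of at least 2 of 10 core cell cycle genes, were compared with cells without any in the same pool and cluster (392 and 297 against 1356 and 1516 cells). Both states were called on the training part of the counts, thinned to 2000 UMIs. A cell without any could therefore still hold such UMIs. The 1153 and 834 cells too shallow for thinning, and 439 and 465 cells with 1 core gene, were left out. Clusters 0, 1, 2, 3, 4, 5 and 8 were used, so cluster 6, led by histone genes, was not. The comparison asks whether the receptor and its targets differ with proliferation inside a cluster. Of the members, 4 passed the filter on low counts, and with edgeR 0 were called, with 0 at an unadjusted p below 0.05 and 0 with DESeq2. In the same test 3.79% of all genes were higher and 0.596% lower. Notch1 differed by 0.04 ± 0.11 on the log2 scale, Dll3 by −0.20 ± 0.17, Hes1 by 0.23 ± 0.15 and Hes5 by −0.14 ± 0.24. Hes1 took opposite signs in the pools, at −0.26 in pool 1 and 0.56 in pool 2. Another fit summed each state over all clusters used, giving 2 libraries per pool with the pool alone as the block. It no longer compared cells within clusters, so cycling state and cluster cannot be told apart in it. There Notch1 and Hes5 were higher and Dll3 and Hey2 lower, among 8 tested, against 15% and 11% of all genes. Hes5 was called at 0.43 (adjusted p = 0.0133 with edgeR) in that fit, opposite in sign to the value within clusters. Median depth was 13512 and 16289 UMIs in cycling cells against 10487 and 13010 in the others.

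Cells were also divided by whether the training part of their counts, thinned to 2000 UMIs, held a UMI of a given member, and the held-out part was compared within each pool and cluster. For the member itself this shows how far detection marks cells that differ. Hes5 was 6.43-fold higher in the held-out counts of Hes5-positive cells (log2 2.68 ± 0.16), with 2.89 in pool 1 and 2.42 in pool 2. Hes1 was 2.86-fold higher in Hes1-positive cells (1.52 ± 0.08), and Dll1 was 3.1-fold (1.63 ± 0.32) and Jag1 2.74-fold higher (1.46 ± 0.48) in cells positive for the same gene. The differences were smaller for Hey1 (0.71 ± 0.36), Hey2 (0.67 ± 0.52), Dll3 (0.58 ± 0.12) and Notch1 (0.32 ± 0.06). These are descriptions of cells chosen by the same gene and carry no test. Values for Hes5, Jag1 and Hey2 come from an alternative chosen after seeing the data, with at least 5 in place of 10 cells per state, because at 10 too few clusters were left. For Notch2 no contrast could be made.

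Between different members no pair passed. With edgeR 0 of 35 pairs were called, against 0.0266% of all genes higher and 0.0379% lower over the 5 contrasts, and 3 pairs had an unadjusted p below 0.05. With DESeq2 0 pairs were called and 2 had an unadjusted p below 0.05. The pair of smallest p was Hes5 in Notch1-positive cells, at 0.46 ± 0.12 (unadjusted p = 0.000314, adjusted p = 0.144 with edgeR), with 0.55 in pool 1 and 0.35 in pool 2. It passed without the filter on low counts (0.42, adjusted p = 0.0319), and stood at 0.09 after thinning to 1000 UMIs. It also passed with each state summed over clusters into 2 libraries per pool (0.58, adjusted p = 0.00126), which no longer compares cells within clusters. Notch1-positive cells had median depths of 9377 and 13608 UMIs against 11835 and 14005 in the others, and the part of depth was not tested. Hes5 differed by 0.47 ± 0.16 in Hes1-positive cells (adjusted p = 0.372 with edgeR), and Hes1 by 0.42 ± 0.15 in Hes5-positive cells (adjusted p = 0.326), with 0.76 in pool 1 and 0.10 in pool 2. Dll3 differed by −0.27 ± 0.12 in Hes1-positive cells (adjusted p = 0.670). A p that misses the threshold does not show that the cells were alike: for Hes1 in Dll1-positive cells the value was −0.33 ± 0.23. In the 21 pairs of the 3 added contrasts none passed with edgeR, against 0.0419% of all genes higher and 0.126% lower, and 2 had an unadjusted p below 0.05.

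**Figure D5:**
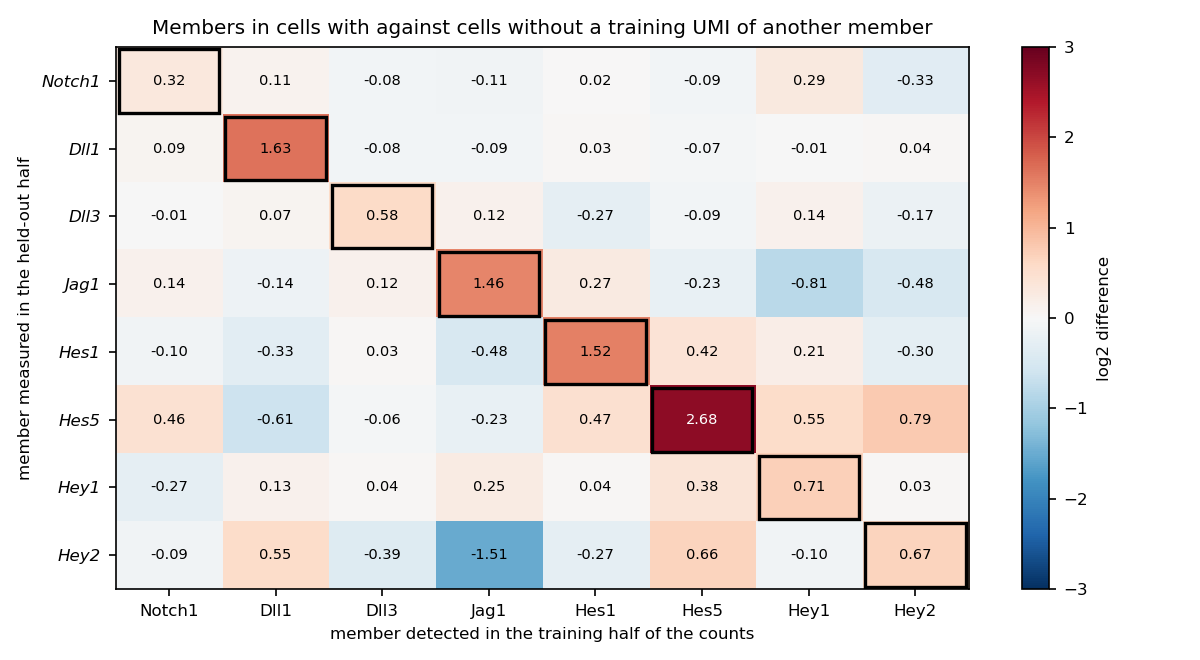
Log2 difference of each gene (rows) in held-out counts between cells with and without a training UMI of the gene named in each column, within pool and cluster. Outlined cells on the diagonal are the same gene and carry no test, with Hes5 the highest at 2.68, and none of the other cells passed at an adjusted p below 0.05.

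Genes outside the pathway that differed by detection were few, 34 over the 5 contrasts with edgeR and 4 with DESeq2. The share of tested genes called was 0.0552% higher and 0.12% lower in Hes1-positive cells, 0.0377% and 0.00943% in Notch1-positive cells, 0.0365% higher in Hey1-positive cells and 0.0575% lower in Dll3-positive cells. Hes1-positive cells had lower Neu4 (−0.87 ± 0.16, adjusted p = 0.00136) and Gjc3 (−0.85 ± 0.15, adjusted p = 0.000521), a sialidase and a connexin of the oligodendrocyte lineage, and lower S100b (−0.53 ± 0.10). These 3 were on the same side in both pools, but each lost its call with DESeq2 and after thinning to 1000 UMIs. Mt2 and S100a10 were also lower, and Gfer, Iffo1, Rasl11a and Inka2 higher (0.27 to 0.64). The call of S100a10 was lost in 8 settings. After thinning to 1000 UMIs Mt2 turned to 0.45 and Gfer to −0.54. Notch1-positive cells had higher Chrna4 (0.36 ± 0.07, adjusted p = 0.00184), Serpina3n and Meg3. Serpina3n and Meg3 each lost the call in 5 settings, DESeq2 among them. Chrna4 lost it without the block and after thinning to 1000 UMIs. Dll3-positive cells had lower Hmga2, Trappc13, Sema3d, Malat1 and Gria2 (−0.22 to −0.83), each lost in at least 7 settings.

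In the 3 added contrasts, Hes5-positive cells had lower Cdkn1a (−0.67 ± 0.13, adjusted p = 0.00239), an inhibitor of the cell cycle, and lower Pmepa1, Map1b, Abhd6 and mt-Nd5, and had higher 2810403D21Rik (1.06 ± 0.25, adjusted p = 0.0268). Hey2-positive cells had lower Ccnd2 (−0.60 ± 0.11, adjusted p = 0.000386), a cyclin of the G1 phase, and lower Pou3f1, Tubb2b, Inka2 and LTO1. Jag1-positive cells had higher Gm48855 (2.66 ± 0.50, adjusted p = 0.00106), Cd93 (1.28 ± 0.30, adjusted p = 0.0336) and Hspa1a and lower Phgdh, Pgk1, Pmvk, Rpl4 and Ednrb. Hspa1a differed by 2.95 without pool 2 and 0.30 without pool 1. The positive cells numbered 116 and 84 for Hes5, 52 and 33 for Hey2, and 33 and 48 for Jag1, and these contrasts were rerun under 1 other setting. The share of tested genes called higher and lower was 0.0283% and 0.0661% in Hes5-positive cells, 0.0381% and 0.0761% in Hey2-positive cells, and 0.0604% and 0.241% in Jag1-positive cells.

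Genes whose levels followed a member most closely over the 9 clusters were ranked by the lower of the correlations in the 2 pools (Pearson r of log2(CPM + 1) from held-out counts, 7065 candidate genes, no test). The 9 points of a pool share a library, and differ in depth. Notch1 was closest to Ddr2 (0.948), Nfib (0.948) and Fam13b (0.945), and Hes1 to Pmp22 (0.95), Clic4 (0.94) and Ccnd2 (0.94). Hes5 was closest to Tnfrsf19 (0.87), Nrarp (0.86) and Trim67 (0.86), and Hey2 to Atp9a (0.86), Bcan (0.84) and Zfp536 (0.84). Dll1 was closest to Lmtk3 (0.91), Ano3 (0.87) and Lrrtm4 (0.82), Dll3 to Trim32 (0.91), Tgfb1i1 (0.90) and Zfp521 (0.90), and Jag1 to Dnm1l (0.91), Ocrl (0.91) and Ppp6r2 (0.86). Hey1, which varied little, had a highest value of 0.80 with Sh3gl1, and for the sparse Notch2 no gene is given.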

How the data were processed

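The authors deposited UMI counts without normalization, 1 table per pool. The submitters' processing notes name Cell Ranger 6.0.2 and the builds GRCm38 and mm10. Libraries used the 10x 3ʹ chemistry on polyA RNA, per the labels' protocols. Which barcodes and genes were dropped before deposit is not stated.

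Each count was divided binomially (probability 0.5) into a training part, for clustering and states, and a held-out part, for tests. Training counts were scaled to 10000, log-transformed and clustered on 1000 variable genes standardized per pool (30 components, 15 neighbours, Leiden resolution 0.8, scanpy 1.11.5). The Notch genes, the other pathway genes and core cell cycle genes were kept out, and the clustering genes out of the tests. Held-out sums were tested with edgeR 4.0.16 (glmQLFit, TMM, filterByExpr, R 4.3.3), with 18 libraries and 8 residual degrees of freedom for clusters, adjusted by Benjamini-Hochberg at 0.05. Cycling and detection contrasts used pool and cluster combined as the block. The scripts were tested on simulated counts. Scrublet called 0 and 2 doublets against 2.80% and 2.62% expected, so doublets were not effectively removed. Levels are CPM with exact Poisson 95% intervals, and intervals cover counting error only. Fold changes are on the scale of the fit.

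Named were all 9 members, the 3 genes closest to each member, and per detection contrast up to 5 genes each way of largest fold, at 20 CPM or more. Other pathway genes named were among the up to 3 each way per contrast with the smallest p and the same side in both pools. Not all genes that met this rule are named in the text, so the named ones are not the full set of calls. Of the other pathway genes, 2 were counted but are not reported here by name or in the plot. The check of sides in 2-state contrasts was changed, after seeing values, to a coefficient per pool. The members and lists were chosen with earlier results of these data known. Alternatives were DESeq2 1.42.0, other scalings, no filter, no block, 2 libraries per pool, stricter cells, other depths and left-out clusters or pools. With 2 libraries per pool, each state was summed over clusters, or a cluster was set against the sum of the rest. The pool alone was then the block. The titles of both samples share a number whose meaning the labels do not give, so the pools may not be fully independent. Positions are from GENCODE.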

Additional observations from a re-analysis of the deposited data

How the results depend on the processing

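Of the 27 member calls between clusters, all kept their direction under every alternative run, and 9 moved by 1 SD of the pools or more without pool 1 and 11 without pool 2. All 27 passed with library sizes alone, upper quartile scaling and stricter cells (1000 genes, 10% mitochondrial). With DESeq2, with 2 libraries per pool or without the deepest cells 25 passed, and 15 passed without the block. Without the pool as a block 10 were higher and 5 lower in place of 17 and 10, against 8.15% and 5.71% of the pairs of all genes. Without the cycling clusters (chosen after seeing the data) 6 were lower among 48 pairs in 6 clusters, against 7.7% of the pairs of all genes. That fit holds no pairs of the cycling clusters, so its count is not on the same pairs as the 10. By cycling state, 2 members were higher and 2 lower with 2 libraries per pool, in place of 0, against 15% and 11% of all genes. That fit does not compare cells within clusters. By detection, 1 pair was higher, in place of 0, without the filter, with 2 libraries per pool, and with those at 5 cells per state. In these fits 0.0525%, 0.175% and 0.209% of all genes were higher, against 0.0266% in the reported one. The fits with 2 libraries per pool do not compare cells within clusters. The cause of these changes was not tested.

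Some values that were not called in the reported fit reversed. Notch1 by cycling state was −0.00788 with cycling called by 3 genes, −0.00312 without the filter, −0.0521 with stricter cells, −0.0424 without cluster 0, −0.0209 without the shallow clusters, −0.0891 without pool 1 and 0.165 without pool 2. Hes1 was −0.261 without pool 2 and 0.56 without pool 1. Hes5 was called at 0.43 (adjusted p = 0.0133 with edgeR) with 2 libraries per pool, a fit that does not compare cells within clusters. After thinning to 1000 UMIs, Mt2 (0.45) and Gfer (−0.54) reversed in Hes1-positive cells. Of 72 calls of named genes outside the members, 38 were kept in all settings that tested them (some in 1) and 34 lost in at least 1.

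As a mean over cells of CPM per cell, levels were 174 for Notch1, 1.51 for Notch2, 24.2 for Dll1, 56.7 for Dll3, 16.1 for Jag1 and 19.8 for Hey1, and Notch2 was 1.39 with stricter cells. Shares at 1000 and 4000 UMIs were 15.4% and 41.8% for Notch1, 2.38% and 6.32% for Dll1, 5.13% and 19.0% for Dll3, 1.56% and 4.08% for Jag1, 7.32% and 20.5% for Hes1, 3.03% and 8.95% for Hes5, 1.89% and 6.91% for Hey1, 1.20% and 4.19% for Hey2, and 0.522% at 4000 for Notch2. Leaving out each pool gives the other pool's value. CPM then ranged over 139 to 154 for Notch1, 1.41 to 1.47 for Notch2, 17.0 to 17.7 for Dll1, 52.2 to 52.7 for Dll3, 10.4 to 11.9 for Jag1, 61.1 to 89.6 for Hes1, 23.1 to 32.7 for Hes5, 18.3 to 19.1 for Hey1 and 8.63 to 14.6 for Hey2. Shares ranged over 23.3% to 28.1%, 0.174% to 0.289%, 4.07% to 4.62%, 10.6% to 10.8%, 1.98% to 3.18%, 11.1% to 15%, 4.14% to 5.94%, 3.55% to 4.11% and 1.64% to 3.34% in the same order. One pool alone leaves no residual degrees of freedom among samples, so no test was run. Depth limits Notch2 most, with 49 and 57 UMIs.

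Over all genes, 11769 were higher and 7989 lower between clusters, and 8180 and 5735 without the block. By cycling state 318 and 50 became 87 and 2 without the block and 1853 and 1361 with 2 libraries per pool. By detection 14 and 20 became 4 and 0 with DESeq2, 44 and 261 without the filter and 0 and 0 without the block. Scaling changed the balance of higher and lower calls in cluster 0 (2975 and 3170, against 4387 and 2329 with library sizes alone) and cluster 6 (1760 and 573, against 1374 and 1111 with upper quartile scaling).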
